A study of Mus musculus with 12 samples.

Results

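The chromatin around 10 genes linked to phagocytosis and to the disease-associated state of microglia was compared between graft-derived and host brain macrophages of the same mice. The genes were Trem2, Tyrobp, Axl, Mertk, Lpl, Cst7, Itgax, Clec7a, Gpnmb and Spp1. Every ATAC-seq peak that the deposited annotation assigned to one of them was taken, which gave 46 of 60288 peaks in the table of untreated mice and 44 of 54953 peaks in the table of mice given lipopolysaccharide (LPS). The genes were chosen by name, with earlier results of these data known. Their counts beside the shares of all peaks are therefore descriptive.

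ATAC-seq marks open chromatin as the places where a transposase can insert sequencing adapters. All mice were bone marrow chimeras: wild-type C57BL/6J recipients were irradiated with 950 cGy when young, reconstituted with wild-type marrow and kept for 3.5 or 9 months. The labels do not assign an interval to each mouse, and the study's text names the longer one for these profiles. The 12 libraries form 4 groups of 3, made from 6 mice, since CD45.1 and CD45.2 cells were sorted from each brain. The CD45.1 form marks descendants of the graft, and the CD45.2 form marks microglia of the irradiated host. Mice 4, 5 and 6 were untreated, and mice 1, 2 and 3 received 2.5 mg/kg LPS, a bacterial endotoxin, 12 h before they were killed. Each library came from 30000 to 50000 cells of a microglia gate. Graft and host cells differ in origin, in exposure to the irradiation and in their time in the brain, and these cannot be told apart here.

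Microglia take up dying cells, myelin lipid and protein deposits through surface receptors that signal into the cell and deliver cargo to the lysosome. TREM2 binds lipids and signals through the adaptor DAP12 (gene Tyrobp), while AXL and MERTK recognise phosphatidylserine on dying cells through bridging proteins. In mouse models of neurodegeneration, microglia are known to enter a TREM2-dependent programme marked by genes such as Axl, Lpl, Cst7, Itgax, Clec7a, Gpnmb and Spp1.

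The untreated libraries held 8392878 to 9107770 tags and the LPS libraries 2966364 to 6556595, so the LPS comparison rests on fewer reads, with medians of 8 to 23.5 tags per peak against 16 to 35. In the CD45.2 cells of mouse 4, 9.30% of tags lay in the library's own peaks, against 17.6% to 27.2% in the other untreated libraries. Markers of homeostatic microglia were well covered in both populations, with a summed signal of 2327 to 3260 normalized tags per CD45.1 library and 4206 to 4639 per CD45.2 library in untreated mice. Levels are normalized tags, counts scaled within each table, so levels of the untreated and LPS tables are not on 1 scale.

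The sequences of 7 peaks are shown first because the comparisons below turn on them. They are 200-bp windows around the peak centres, given on the plus strand of mm9. They cover 4 peaks that were over 4-fold higher in untreated CD45.1 cells and the 3 Spp1 peaks that were higher in CD45.1 cells after LPS. Another peak over 4-fold higher in untreated CD45.1 cells, the Axl promoter peak 29 bp upstream, is not shown because it overlaps an untranslated region.
Axl, 2088 bp upstream (chr7:26575740-26575939): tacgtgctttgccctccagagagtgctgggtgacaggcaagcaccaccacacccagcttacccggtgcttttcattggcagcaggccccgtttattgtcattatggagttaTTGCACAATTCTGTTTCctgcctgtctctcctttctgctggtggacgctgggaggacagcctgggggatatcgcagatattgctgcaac
Clec7a, 1213 bp downstream (chr6:129421484-129421683): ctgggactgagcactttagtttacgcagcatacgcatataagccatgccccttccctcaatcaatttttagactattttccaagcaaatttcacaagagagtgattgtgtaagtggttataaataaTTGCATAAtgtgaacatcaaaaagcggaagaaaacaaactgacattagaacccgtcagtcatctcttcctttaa
Lpl, 34149 bp downstream (chr8:71438503-71438702): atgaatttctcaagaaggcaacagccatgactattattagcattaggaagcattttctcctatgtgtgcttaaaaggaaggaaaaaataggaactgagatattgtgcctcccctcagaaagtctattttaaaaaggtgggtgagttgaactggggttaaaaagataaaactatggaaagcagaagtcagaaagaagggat
Mertk, 46980 bp downstream (chr2:128571613-128571812): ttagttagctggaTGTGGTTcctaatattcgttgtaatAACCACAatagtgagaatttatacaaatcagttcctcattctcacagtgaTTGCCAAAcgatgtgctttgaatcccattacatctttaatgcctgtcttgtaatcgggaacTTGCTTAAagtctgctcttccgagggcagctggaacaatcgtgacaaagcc
Spp1, 54363 bp upstream (chr5:104809667-104809866): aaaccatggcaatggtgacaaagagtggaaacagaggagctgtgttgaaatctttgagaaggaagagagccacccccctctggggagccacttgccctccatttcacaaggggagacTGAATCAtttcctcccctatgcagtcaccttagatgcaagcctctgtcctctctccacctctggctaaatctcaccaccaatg
Spp1, 38604 bp upstream (chr5:104825426-104825625): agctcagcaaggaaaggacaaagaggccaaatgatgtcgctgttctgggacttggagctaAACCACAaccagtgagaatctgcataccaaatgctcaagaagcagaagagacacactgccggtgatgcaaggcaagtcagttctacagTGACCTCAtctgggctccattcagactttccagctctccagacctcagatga
Spp1, 89 bp upstream (chr5:104863941-104864140): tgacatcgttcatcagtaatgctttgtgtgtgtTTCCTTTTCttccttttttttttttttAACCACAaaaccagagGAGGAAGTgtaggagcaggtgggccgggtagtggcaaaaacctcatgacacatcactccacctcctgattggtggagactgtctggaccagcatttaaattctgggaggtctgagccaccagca
Capitals mark the letters of any motif searched on both strands: AP-1 with a spacer of 1 base (TGANTCA) or of 2 bases (TGANNTCA), PU.1 (GAGGAAGT), CEBP (TTGCNNAA), RUNX (TGTGGTT), NF-kappaB (GGGANTTCC), IRF (GAAANNGAA) and an E-box (CACGTG). PU.1 is the lineage factor of macrophages, and AP-1 and NF-kappaB are factors that respond to stimulation. The study describes IRF8, of the IRF family, as a regulator of microglia identity. The Axl window held a CEBP and an IRF match that adjoin without sharing a base. The Clec7a window held a CEBP match, and the Mertk window CEBP and RUNX matches, 2 of each. The Lpl window held none of these letters. Of the Spp1 windows, the one 54363 bp upstream held the AP-1 match TGANTCA, the one 38604 bp upstream held TGANNTCA and a RUNX match, and the promoter window held PU.1, RUNX and IRF matches. Such short matches are common: of all tested windows of this length, 9.88% held the CEBP letters, 8.39% the IRF letters and 5.67% the RUNX letters in the untreated table, and 13.7% held TGANTCA, 9.81% TGANNTCA, 8.97% the PU.1 letters, 7.52% the IRF letters and 5.74% the RUNX letters in the LPS table. The NF-kappaB and E-box letters occurred in none of the 7 windows, and in 1.52% and 5.68% of all untreated windows.

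In untreated mice, graft-derived cells had higher signal than host microglia at peaks of Axl, Clec7a, Lpl, Mertk and Spp1, while no tested peak of Trem2, Tyrobp, Cst7, Itgax or Gpnmb passed the test in either direction. Of the 46 peaks, 45 had enough tags to be tested. The signal was higher in CD45.1 cells at 11 of them (adjusted p under 0.05 over all 59170 peaks tested, DESeq2), where 8.54% of all peaks passed in that direction. It was lower at 0, where 6.32% of all peaks passed. At an unadjusted p under 0.05 there were 13 higher and 3 lower, and edgeR called 12 higher and 2 lower. Of the 11 peaks, 3 lie at promoters, 4 in introns and 4 between genes. Each was higher in CD45.1 cells in 3 of 3 mice, which adds no separate support, since the same libraries selected these peaks. The median log2 difference over the 45 peaks was 0.16, with 29 positive, against 0.00084 over all peaks tested. In sorted bulk cells, a change in the number of cells with an open site and a change in openness per cell cannot be told apart.

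Of the 11 peaks, 5 were also over 4-fold higher at an adjusted p under 0.01, a rule that 3.78% of all peaks met. These 5, at Axl (2 peaks), Clec7a, Lpl and Mertk, passed under every setting and with any 1 library left out wherever an adjusted p was given. The count of 11 was less firm: it was 6 with the mouse as a replicate block, 6 without the CD45.1 library of mouse 4 and 5 without the CD45.2 library of mouse 5. Without the CD45.2 library of mouse 4, the 1 with few tags in peaks, all 11 still passed and 1 Itgax peak passed as lower. The 3 libraries of one population all lay above the 3 of the other, with CD45.1 higher, at 14 peaks (17.7% of all peaks tested), and with CD45.1 lower at 3 peaks (17.7% of all).

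**Figure D1:**
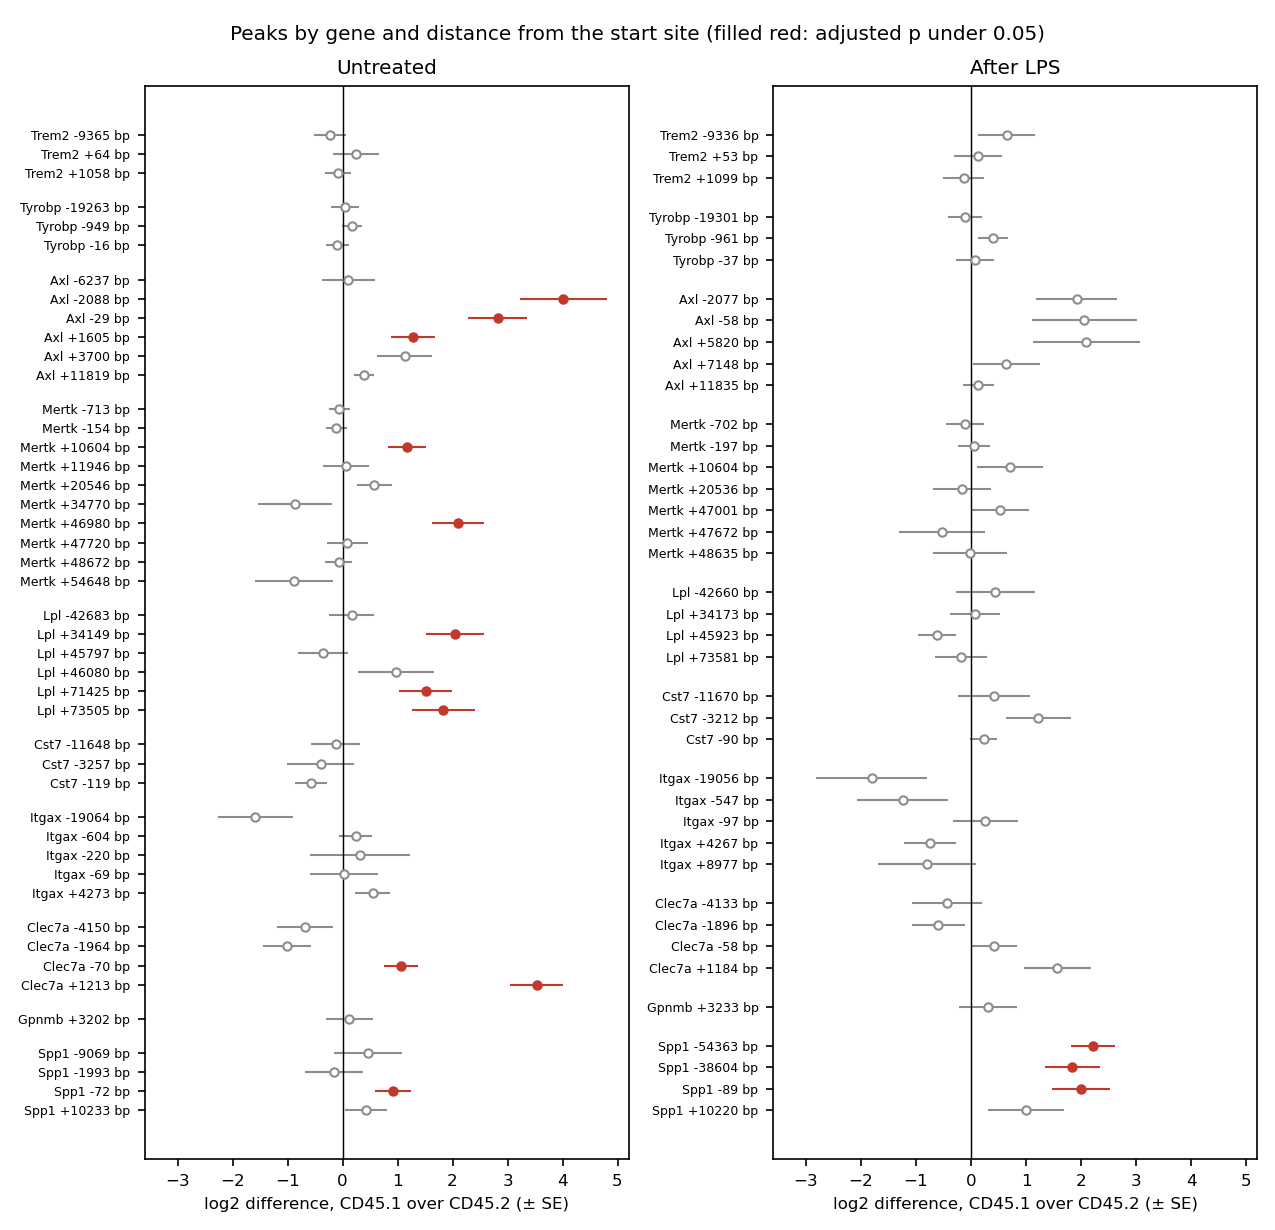
Log2 difference of CD45.1 over CD45.2 signal (± SE) at each tested peak of the 10 genes, in untreated mice (left) and after LPS (right), by gene and distance from the start site. Filled red points passed an adjusted p of 0.05: 11 peaks of Axl, Mertk, Lpl, Clec7a and Spp1 in untreated mice, and 3 peaks of Spp1 after LPS, all to the right of 0.

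Trem2 and Tyrobp, the receptor and its adaptor, were open in both populations. At the Trem2 start site (chr17:48485726-48485854) the CD45.1 libraries of mice 4, 5 and 6 had 29.8, 23.7 and 15.2 normalized tags and the CD45.2 libraries 22.9, 21.7 and 14.6. The ranges overlapped, and mouse 6 was lowest in both populations (log2 difference 0.25, adjusted p = 0.830 by DESeq2). At the Tyrobp start site (chr7:31198719-31198864) the values were 97.0, 76.7 and 87.1 in CD45.1 cells and 83.6, 96.8 and 95.8 in CD45.2 cells, again overlapping (log2 difference -0.09, adjusted p = 0.876). The other 4 peaks of these genes ranged in log2 difference from -0.23 to 0.17. Per kb of peak, Tyrobp had the most signal of the 10 genes in untreated mice, with 680 normalized tags per kb in CD45.1 and 664 in CD45.2 cells.

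Axl, a receptor of the TAM family that binds the bridging protein GAS6, differed at 3 peaks near its start site. At a peak 2088 bp upstream of the start site (chr7:26575771-26575910, between genes), CD45.1 libraries had 33.6, 18.3 and 24 tags and CD45.2 libraries 0, 1.55 and 2.43. No CD45.2 library held more than 3 raw tags there, so the signal was at least 7.84-fold higher in CD45.1 cells (adjusted p = 1.6e-05), and the peak had been called in 3 of 3 CD45.1 libraries and 0 of 3 CD45.2 libraries. At the promoter peak 29 bp upstream (chr7:26573720-26573842), values were 32.6, 34.7 and 26.1 against 3.28, 4.64 and 4.87, a 7.06-fold difference (log2 2.82 ± 0.54 SE, adjusted p = 7.9e-06). In both peaks the lowest CD45.1 library lay far above the highest CD45.2 library.

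At another Axl peak, 1605 bp downstream in intron 2 of 18 (chr7:26572068-26572226), CD45.1 libraries had 43.8, 32.9 and 32.7 tags and CD45.2 libraries 14.7, 10.8 and 19.5 (log2 1.28 ± 0.39, adjusted p = 0.0108). The groups did not overlap, but the call was lost with the replicate block (adjusted p = 0.0679), without the CD45.1 library of mouse 4 (0.146) and without the CD45.2 library of mouse 5 (0.180). Scaling to total tags, rather than by the median ratio of peak counts between libraries, also ended this call (0.0865). The strongest Axl peak, 11819 bp downstream within the gene, had 129, 149 and 133 tags against 105, 96.0 and 112, and did not pass (log2 0.39, adjusted p = 0.143). The differences at Axl lay at weak peaks close to the start, and the 3 Axl peaks that did not pass had log2 differences of 0.11 to 1.13.

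Mertk, the other TAM receptor of the set, which mediates the uptake of dying cells, differed inside the gene but not at its promoter. The promoter peak (chr2:128524491-128524668) had 153, 103 and 113 tags in CD45.1 cells and 152, 118 and 135 in CD45.2 cells, with mouse 4 highest in both (log2 -0.12, adjusted p = 0.824). At a peak 46980 bp downstream in intron 4 of 18 (chr2:128571651-128571776), values were 33.6, 25.6 and 41.4 against 4.92, 9.29 and 8.12, a 4.28-fold difference (log2 2.10 ± 0.47, adjusted p = 0.000163). That peak was called in 3 of 3 CD45.1 and 0 of 3 CD45.2 libraries. In intron 1, 10604 bp downstream (chr2:128535249-128535426), values were 50.4, 42.0 and 43.6 against 19.7, 17.8 and 22.7 (log2 1.17 ± 0.34, adjusted p = 0.00572). That call was lost with the replicate block (0.0520), without the CD45.1 library of mouse 4 (0.0801) or without the CD45.2 library of mouse 5 (0.0960). It was also lost with total-tag scaling (0.0836). The other 7 Mertk peaks beside these 3 had log2 differences of -0.88 to 0.58.

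Clec7a, which encodes the beta-glucan receptor Dectin-1, held the difference with the smallest p of the set. In intron 1 of 4, 1213 bp downstream (chr6:129421532-129421636), CD45.1 libraries had 51.3, 51.1 and 54.5 tags and CD45.2 libraries 6.55, 3.10 and 4.87. CD45.1 cells were 11.6-fold higher (log2 3.53 ± 0.49, adjusted p = 1.1e-10), with little spread among mice. At the promoter (chr6:129422786-129422948), values were 61.6, 50.2 and 68.6 against 26.2, 21.7 and 37.3, a 2.10-fold difference (log2 1.07 ± 0.31, adjusted p = 0.00542).

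The Clec7a promoter call was lost without the CD45.1 library of mouse 4 (adjusted p = 0.0544) or mouse 6 (0.0506) or the CD45.2 library of mouse 5 (0.134). Total-tag scaling ended that call too (0.127). Upstream of the gene the order turned. At 1964 bp upstream, CD45.1 libraries had 11.2, 14.6 and 10.9 tags and CD45.2 libraries 22.9, 23.2 and 27.6, a peak called in 0 of 3 and 3 of 3 libraries. The groups did not overlap, but DESeq2 gave an adjusted p of 0.115 (log2 -1.01), while edgeR called it lower. The peak 4150 bp upstream had 13.1, 10.04 and 8.71 against 13.1, 19.4 and 17.9 and did not pass (adjusted p = 0.479).

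**Figure D2:**
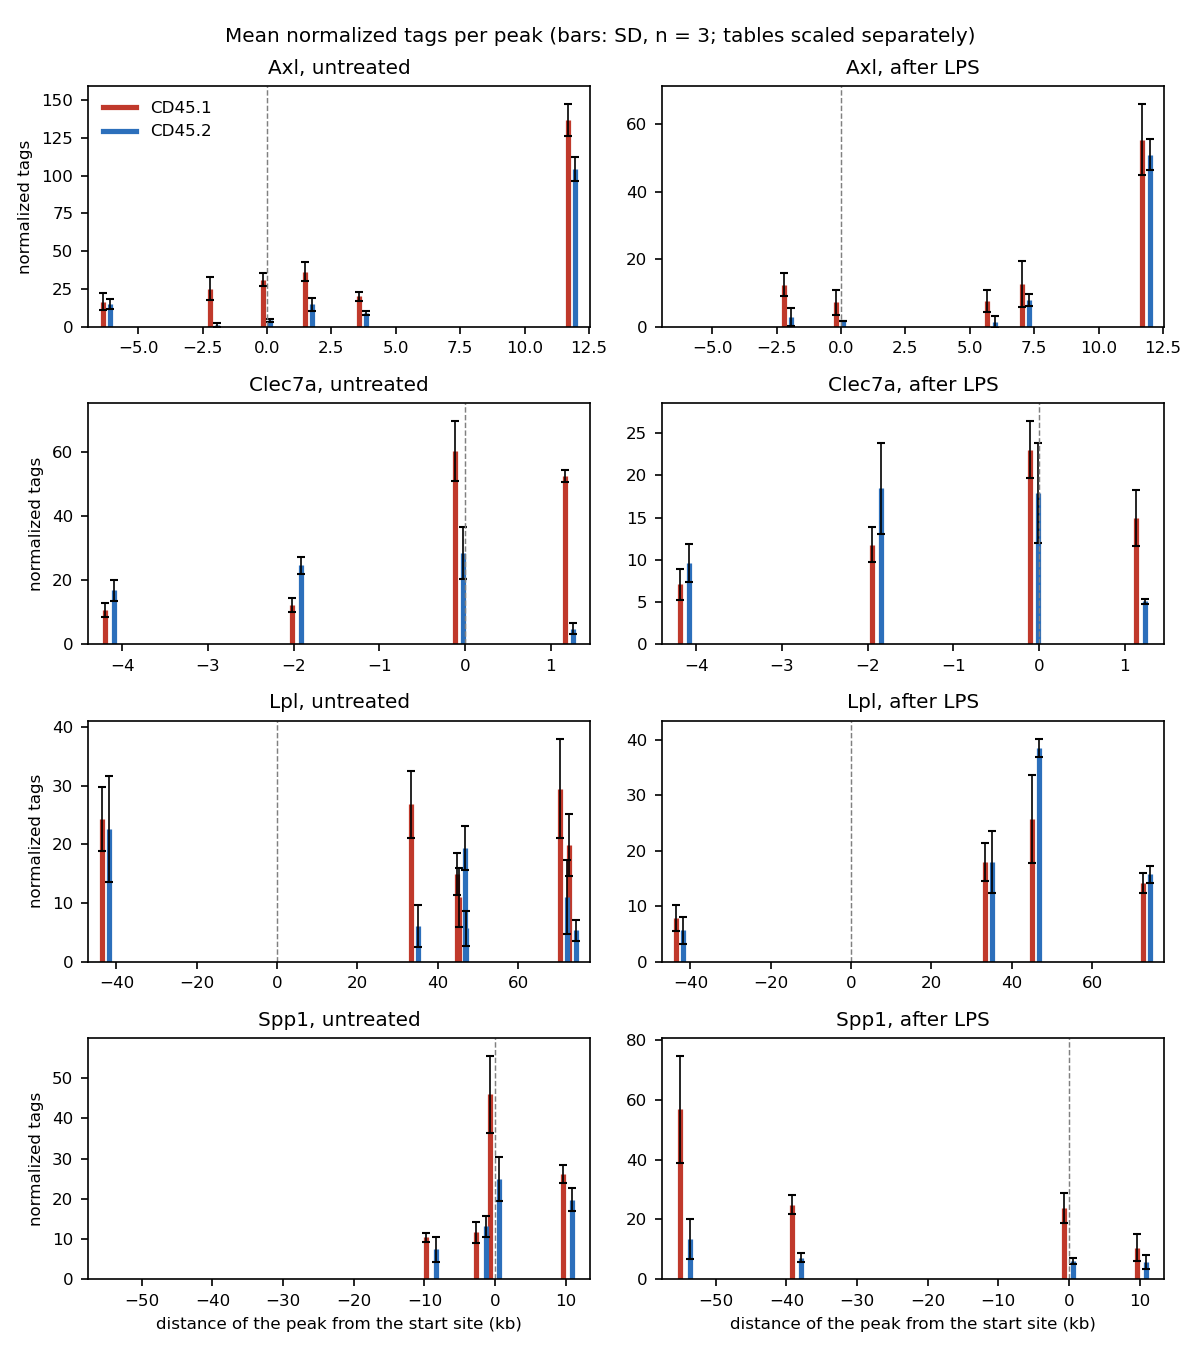
Mean normalized tags (bars from 0, SD, n = 3) at each tested peak of Axl, Clec7a, Lpl and Spp1, in CD45.1 (red) and CD45.2 (blue) cells, by distance from the start site in kb, for untreated mice (left) and after LPS (right). Untreated CD45.1 bars stand above CD45.2 around the Axl start and at the Clec7a intron peak, and after LPS at the Spp1 promoter and the upstream Spp1 peaks. Each panel has its own vertical axis, and the tables were scaled separately.

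Lpl encodes lipoprotein lipase, which frees fatty acids from lipoprotein triglycerides. It had no promoter peak in either table. Apart from 1 peak in intron 1 of 9 in the LPS table, its peaks lie between genes and were assigned to Lpl as the nearest start. At 34149 bp downstream (chr8:71438551-71438655), CD45.1 libraries had 21.5, 32.9 and 26.1 tags and CD45.2 libraries 3.28, 10.1 and 4.87, a 4.14-fold difference (log2 2.05 ± 0.52, adjusted p = 0.00137). The groups were well apart. At 73505 bp downstream, values were 18.7, 25.6 and 15.2 against 3.28, 6.19 and 6.49 (log2 1.83 ± 0.57, adjusted p = 0.0132), and at 71425 bp downstream 20.5, 37.4 and 30.5 against 16.4, 12.4 and 4.06 (log2 1.51 ± 0.48, adjusted p = 0.0152).

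The latter Lpl peaks separated the groups less firmly. With the replicate block their adjusted p was 0.0700 and 0.0687. Total-tag scaling ended the call at 73505 bp (adjusted p = 0.0591). The call at 73505 bp was lost without the CD45.1 library of mouse 4 (adjusted p = 0.0647) or 5 (0.140) or the CD45.2 library of mouse 5 (0.0864) or 6 (0.0688), and the call at 71425 bp without the CD45.1 library of mouse 5 (0.172) or 6 (0.0585) or the CD45.2 library of mouse 5 (0.0704) or 6 (0.252). The other 3 tested Lpl peaks had log2 differences of -0.35 to 0.97.

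Spp1 encodes osteopontin, a secreted phosphoprotein that binds integrins and CD44. Its promoter peak (chr5:104863971-104864145) had 42.9, 38.3 and 56.6 tags in CD45.1 and 31.1, 21.7 and 21.9 in CD45.2 cells, 1.89-fold higher without overlap (log2 0.92 ± 0.33, adjusted p = 0.0396). This was the call nearest to the threshold: with the replicate block its adjusted p was 0.180, and it held only when the CD45.2 library of mouse 4 was the one left out. Leaving out any other library gave an adjusted p of 0.0634 to 0.274. Total-tag scaling gave 0.164, and a mean count of at least 20 gave 0.0524. The other 3 Spp1 peaks had log2 differences of -0.16 to 0.46.

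Cst7, Itgax and Gpnmb had no peak that passed. Cst7 encodes cystatin F, an inhibitor of lysosomal cysteine proteases, and its promoter peak (chr2:150395898-150396167) had 39.2, 40.2 and 26.1 tags in CD45.1 cells against 62.3, 51.9 and 46.3 in CD45.2 cells. Every CD45.1 library lay below every CD45.2 library, and the difference did not pass (log2 -0.58 ± 0.29, adjusted p = 0.211). Itgax encodes the integrin CD11c, and its peak nearest the start (chr7:135272966-135273060) had 14, 4.56 and 10.9 against 9.83, 7.74 and 11.4, fully overlapping (log2 0.02, adjusted p = 0.991).

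A peak 19064 bp upstream of Itgax lies in intron 16 of the neighbouring gene Itgam, which encodes CD11b. It had 4.66, 3.65 and 6.53 tags in CD45.1 cells and 3.28, 20.9 and 17.9 in CD45.2 cells, with the CD45.2 library of mouse 4 at the level of CD45.1 (log2 -1.58, adjusted p = 0.112). Without that library it passed as lower (log2 -2.00, adjusted p = 0.0151), and edgeR called it lower with all libraries. Gpnmb, a lysosomal and surface glycoprotein, had 1 peak, in intron 1 of 10 (chr6:48989670-48989768), with 22.4, 18.3 and 17.4 tags against 13.1, 17 and 21.9, overlapping (log2 0.13, adjusted p = 0.927).

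Summed over all peaks of each gene, 3 of the 10 genes were higher in untreated CD45.1 cells, where 7.35% of the 16174 genes tested were higher. Lower were 0 genes, against 7.46% of all, and 0 were lower at an unadjusted p under 0.05 or with edgeR, which called 4 higher. Axl had 272, 272 and 251 normalized tags in CD45.1 and 139, 143 and 168 in CD45.2 libraries (log2 0.81 ± 0.15, adjusted p = 9.6e-07). Clec7a had 139, 128 and 138 against 68.0, 68.4 and 89.8 (log2 0.83 ± 0.20, adjusted p = 0.00044). Lpl had 109, 146 and 130 against 87.5, 66.0 and 64.8 (log2 0.85 ± 0.21, adjusted p = 0.00072). In all 3 genes the groups were apart in every library, and the share of all gene sums set apart in this way is not given here. The 3 sums still passed with any 1 library left out. Scaled to total tags rather than by the median ratio of counts, none of the 3 passed (adjusted p 0.325, 0.382 and 0.162), with log2 differences of 0.83, 0.84 and 0.91. By the strongest peak of each gene, only Clec7a passed. Across the other 7 genes the log2 difference ran from -0.46 for Cst7 (adjusted p = 0.226) to 0.53 for Spp1 (adjusted p = 0.0819).

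**Figure D3:**
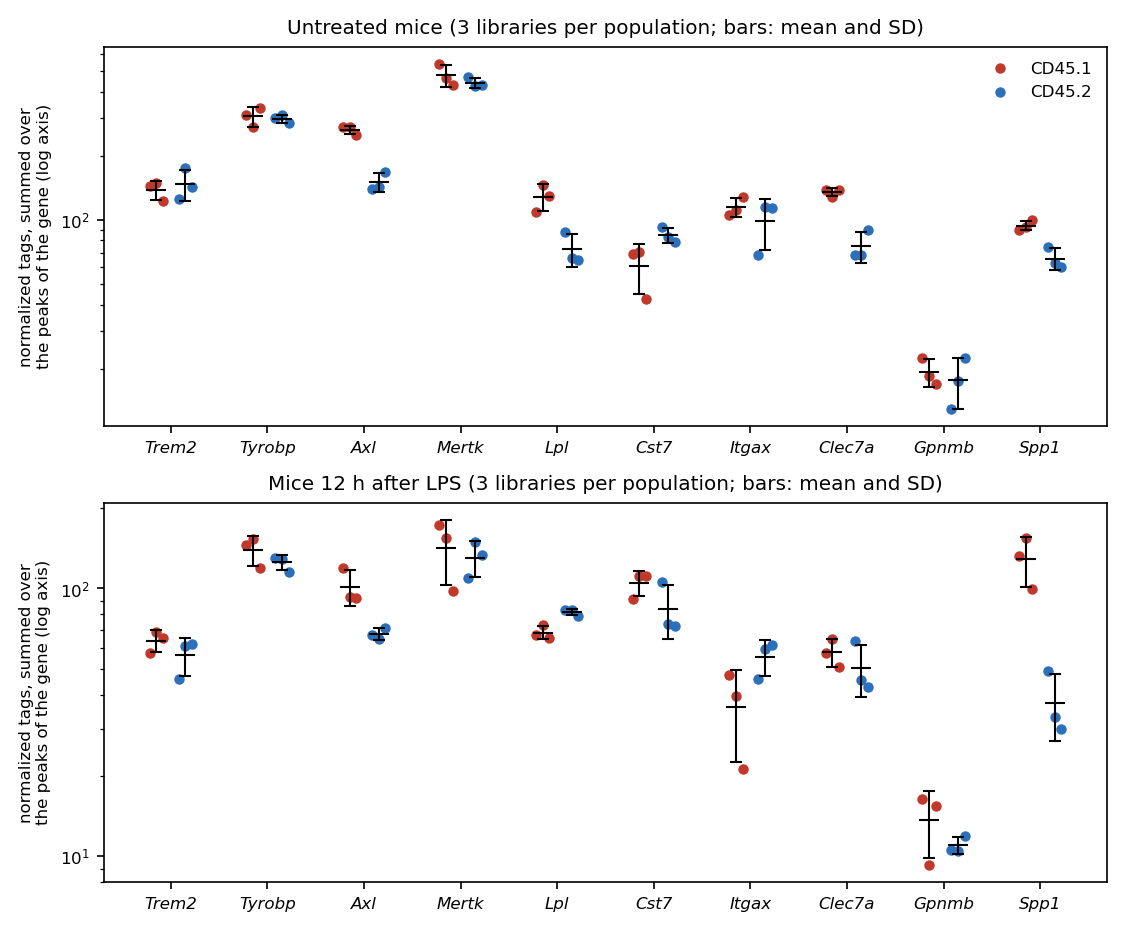
Normalized tags summed over the peaks of each gene, on a log axis, for each of the 3 CD45.1 (red) and 3 CD45.2 (blue) libraries in untreated mice (top) and after LPS (bottom), with mean and SD. Untreated CD45.1 libraries of Axl, Lpl, Clec7a and Spp1 all lie above the CD45.2 libraries, and those of Cst7 all lie below. After LPS those of Spp1, at 99.9 to 154 against 29.8 to 49.3, and of Axl lie above, and those of Lpl below. Only Axl, Lpl and Clec7a untreated and Spp1 after LPS passed. Separation alone is common with 3 libraries against 3: in untreated mice, 17.7% of all peaks tested were apart in each direction. The share over all gene sums is not given here.

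After LPS, graft-derived cells had higher signal than host microglia at 3 peaks of the 10 genes, all 3 of them at Spp1. Of the 44 peaks, 39 were tested. The 3 Spp1 peaks passed as higher, where 4.08% of the 49180 peaks tested passed, and 0 of the 39 were lower, where 2.38% of all peaks were. At an unadjusted p under 0.05, 8 were higher and 0 lower by DESeq2, and edgeR called 5 higher and 0 lower. One of the 3 was also over 4-fold at an adjusted p under 0.01, a rule met by 1.78% of all peaks. The groups did not overlap at 9 peaks with CD45.1 higher (14.1% of all peaks) and at 3 with CD45.1 lower (13% of all). The median log2 difference was 0.23, with 25 of 39 positive, against -0.0077 over all peaks.

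The largest of these was the Spp1 peak 54363 bp upstream (chr5:104809670-104809865), between genes, 54370 bp from the annotated start of Spp1 and 55419 bp from that of Mepe. CD45.1 libraries of mice 1, 2 and 3 had 59.8, 73.1 and 37.7 tags there and CD45.2 libraries 21, 9.59 and 9.50, a 4.64-fold difference (log2 2.21 ± 0.40, adjusted p = 5.4e-06). It passed with any 1 library left out and under every setting. The peak was called in 3 of 3 libraries of each population after LPS and in 0 of the 6 untreated libraries.

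The Spp1 peak 38604 bp upstream (chr5:104825445-104825608) had 22.6, 28.7 and 23.6 tags against 8.76, 6.98 and 5.94, 3.58-fold higher (log2 1.84 ± 0.50, adjusted p = 0.00694), and was likewise called in 0 untreated libraries. At the Spp1 promoter (chr5:104863968-104864114), values were 25.9, 27.4 and 17.9 against 7.01, 5.23 and 5.94, 3.99-fold higher (log2 2.00 ± 0.53, adjusted p = 0.00532). The promoter peak was called in 3 of 3 CD45.1 and 0 of 3 CD45.2 libraries after LPS, and in all 6 untreated libraries. With the replicate block these calls were lost (adjusted p 0.0647 and 0.0568), and the count of 3 became 1. It also became 1 without the CD45.1 library of mouse 2, the CD45.2 library of mouse 2 or the CD45.2 library of mouse 3 (adjusted p 0.0728 to 0.118 at these peaks). Without the CD45.1 library of mouse 1 the promoter call was lost as well (adjusted p = 0.0695).

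At 2 of the 3 Axl peaks and at the Clec7a intron peak that had differed in untreated mice, the groups kept their order after LPS, without passing. The Axl peak 1605 bp downstream had no overlapping peak in the LPS table. At Axl 2077 bp upstream, CD45.1 libraries had 16.2, 9.13 and 12.3 tags and CD45.2 libraries 0, 5.23 and 3.56 (log2 1.92 ± 0.73, adjusted p = 0.101). At the Axl promoter, values were 6.47, 3.91 and 11.3 against 1.75, 1.74 and 1.78. No CD45.2 library held more than 3 raw tags there, which makes the signal at least 2.25-fold higher in CD45.1 cells (adjusted p = 0.243). At the Clec7a intron peak, 1184 bp downstream, values were 17.8, 15.7 and 11.3 against 5.25, 5.23 and 4.75 (log2 1.57 ± 0.61, adjusted p = 0.116). The groups did not overlap at these 3 peaks, and edgeR called the first and the last of them (adjusted p 0.0157 and 0.0132).

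The Lpl and Mertk peaks that had differed in untreated mice and had a counterpart after LPS overlapped between the populations there. The Lpl peak 34173 bp downstream had 21.8, 17 and 15.1 tags in CD45.1 cells and 22.8, 19.2 and 11.9 in CD45.2 cells (log2 0.07, adjusted p = 0.974). The Mertk peak 47001 bp downstream had 19.4, 20.9 and 9.44 against 5.25, 14 and 13.1 (log2 0.53, adjusted p = 0.741). Groups also overlapped at the Lpl peak 73581 bp downstream (log2 -0.18, adjusted p = 0.928) and at the Mertk peak 10604 bp downstream (log2 0.71, adjusted p = 0.673), while the Lpl peak 71425 bp downstream had no overlapping peak in the LPS table. A further Lpl peak, 45923 bp downstream, was lower in every CD45.1 library, with 17, 32.6 and 27.4 against 36.8, 40.1 and 38.6, and did not pass (log2 -0.62, adjusted p = 0.410).

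The start-site peaks of the other genes overlapped between populations after LPS. The Trem2 peak had 12.9, 23.5 and 25.5 tags in CD45.1 and 14, 19.2 and 21.4 in CD45.2 cells, and the Tyrobp peak 30.7, 44.4 and 26.4 against 26.3, 31.4 and 35.6. The Mertk promoter had 58.2, 57.4 and 36.8 against 35.0, 55.8 and 52.2, and that of Cst7 71.2, 86.1 and 83.0 against 89.3, 58.4 and 61.7. None of these 4 passed.

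The Clec7a promoter, with 19.4, 26.1 and 23.6 tags against 24.5, 13.1 and 16, no longer had separate groups. The Itgax peak nearest the start had 12.9, 13 and 8.49 against 3.50, 11.3 and 11.9, and the Gpnmb peak 16.2, 9.13 and 15.1 against 10.5, 10.5 and 11.9, neither of which passed. The Lpl peak nearest to the start, 851 bp downstream, had at most 5.5 raw tags in any library and was not tested. Over all 36 peaks that were tested and did not pass, log2 differences ran from -1.81 to 2.10, and the smallest adjusted p was 0.101.

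By gene sums, Spp1 was the 1 gene of the 10 that was higher in CD45.1 cells after LPS, with 133, 154 and 99.9 normalized tags against 49.3, 33.2 and 29.8 (log2 1.84 ± 0.27, adjusted p = 6.2e-10). Of all 15722 genes tested, 4.08% were higher and 2.98% lower, and 0 of the 10 were lower, with 1 lower at an unadjusted p under 0.05 and 0 called lower by edgeR. The Spp1 sum passed under every setting and with any 1 library left out. Axl, with a log2 difference of 0.59, had an adjusted p of 0.112 by DESeq2 and of 0.0384 by edgeR. The log2 differences of the other 8 genes ran from -0.64 for Itgax to 0.35 for Cst7.

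The response to LPS was then compared at peaks found in both tables. A pair of peaks was matched where each covered at least 50% of the other, which held for 31 pairs of the 10 genes among 39390. All 12 libraries were scaled together over 39235 matched peaks, so the values below are on a scale of their own. The tables were built from separate mice, peak calls and depths, with median peak widths of 132 bp untreated and 167 bp after LPS, so treatment and table cannot be told apart. In CD45.1 cells 3 peaks were higher after LPS and 4 lower, where 12.5% of all matched peaks were higher and 7.41% lower. In CD45.2 cells 4 were higher and 2 lower, where 11.6% and 5.01% of all were. By edgeR, 4 were higher and 4 lower in CD45.1 cells, and 5 and 3 in CD45.2 cells. The calls that edgeR added include the Axl peak 2088 bp upstream, higher in CD45.2 cells (log2 2.14, adjusted p = 0.0413). For the graft-derived cells the 31 responses had a median log2 of -0.16, against -0.0045 over all matched peaks, and for the host cells of -0.24, against -0.0072.

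Cst7 held the response with the smallest p of the set, in each population. At its promoter peak, CD45.1 libraries had 26.1, 26.9 and 17.2 tags in untreated mice and 103, 128 and 123 after LPS (log2 2.32 ± 0.24, adjusted p = 7.4e-19). CD45.2 libraries had 41.3, 35.3 and 31.3 in untreated mice and 129, 84.7 and 91.0 after LPS (log2 1.47 ± 0.23, adjusted p = 1.5e-08). Treated and untreated libraries were far apart in each population, and both calls held with any 1 library left out and under every setting. Another Cst7 peak, 3257 bp upstream, was higher after LPS in CD45.1 cells, from 7.47, 3.67 and 5.73 to 18.8, 23.3 and 22.4 tags (log2 1.93 ± 0.50, adjusted p = 0.0017), and did not pass in CD45.2 cells (log2 0.26).

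Lpl and Mertk each had a peak that was higher after LPS in host microglia. At the Lpl peak 34149 bp downstream, CD45.2 libraries had 2.18, 6.85 and 3.30 tags untreated and 32.8, 27.8 and 17.5 after LPS (log2 2.48 ± 0.47, adjusted p = 6.1e-06). CD45.1 libraries, already high when untreated, had 14.3, 22 and 17.2 and then 31.6, 25.3 and 22.4 (log2 0.58, adjusted p = 0.290). The CD45.2 groups did not overlap, and their call held in every setting. With peaks matched by any overlap instead, the Lpl peak 45797 bp downstream was higher after LPS in both populations (log2 1.86 in CD45.1 and 2.11 in CD45.2 cells) and that 73505 bp downstream in CD45.2 cells (log2 2.57), both named after their values were seen. The paired peaks differ in width, with 120 bp untreated against 370 bp after LPS at the former, where the LPS peak overlaps 3 untreated peaks, and 131 bp against 288 bp at the latter. The part of width in these responses was not tested.

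At the Mertk peak 46980 bp downstream, CD45.2 libraries had 3.26, 6.32 and 5.49 tags untreated and 7.57, 20.2 and 19.3 after LPS (log2 1.68 ± 0.49, adjusted p = 0.0061), and the log2 response in CD45.1 cells was 0.12. The CD45.2 call was lost without the CD45.2 LPS library of mouse 2 (adjusted p = 0.0606) or mouse 3 (0.0623) and with total-tag scaling (0.0672). Another Mertk peak, 48672 bp downstream, was lower after LPS in both populations. CD45.1 libraries went from 53.5, 39.2 and 35.8 to 19.9, 15.5 and 2.80 tags (log2 -1.74 ± 0.39, adjusted p = 0.0002), and CD45.2 libraries from 50.0, 45.3 and 42.9 to 17.7, 12.6 and 9.63 (log2 -1.89 ± 0.39, adjusted p = 2.8e-05). Both calls were lost when counts were divided by peak width (adjusted p 0.131 and 0.0757).

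In CD45.1 cells the Mertk peaks 20546 and 47720 bp downstream were also lower after LPS, with log2 responses of -0.99 and -1.38 (adjusted p 0.0460 and 0.0400). With counts divided by peak width the call at 47720 bp was lost (log2 -0.54, adjusted p = 0.498), and with total-tag scaling both were (adjusted p 0.175 and 0.120). Both calls were also lost without the CD45.1 library of mouse 1, 2, 3, 4 or 5 or the CD45.2 library of mouse 6 (adjusted p 0.0531 to 0.211), the first also without the CD45.2 library of mouse 2 (0.0546) or 4 (0.0508), and the latter without that of mouse 5 (0.0519). The Itgax peak 604 bp upstream was lower in CD45.1 cells, from 27.4, 33.1 and 24.4 to 4.69, 7.77 and 2.80 tags (log2 -2.55 ± 0.55, adjusted p = 9.9e-05), and this held in every setting. In CD45.2 cells it had 21.8, 27.4 and 23.1 and then 5.04, 10.1 and 17.5, which did not pass by DESeq2 (log2 -0.99, adjusted p = 0.0902). By edgeR it passed as lower in CD45.2 cells too (log2 -0.95, adjusted p = 0.0286). The paired peaks are shifted, at chr7:135272414-135272542 untreated and chr7:135272476-135272594 after LPS, so the counts cover partly different sequence. The LPS peak was called in 0 CD45.1 LPS libraries. The part of the shift in this response was not tested. The Itgax peak nearest the start was higher in CD45.1 cells, from 9.34, 3.06 and 7.17 to 18.8, 19.4 and 12.6 (log2 1.37, adjusted p = 0.0399), and the call held only when the omitted library was either 1 of mouse 4 or the CD45.2 library of mouse 1. Leaving out any other gave an adjusted p of 0.0517 to 0.196, and total-tag scaling gave 0.157. The paired peaks at this site are 95 bp wide untreated and 163 bp after LPS, and the LPS peak overlaps 2 untreated peaks. With counts divided by peak width this response had no adjusted p.

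Trem2 responded in CD45.2 cells at each of 2 peaks, in opposite directions. The peak 9365 bp upstream went from 31.6, 35.3 and 28.6 to 17.7, 12.6 and 15.8 tags (log2 -1.08, adjusted p = 0.0214). The start-site peak went from 15.2, 14.8 and 9.89 to 20.2, 27.8 and 31.5 (log2 1.07, adjusted p = 0.0366). In CD45.1 cells it went from 19.9, 15.9 and 10.03 to 18.8, 35.0 and 37.8 (log2 0.96, adjusted p = 0.0503 by DESeq2). By edgeR this CD45.1 response passed (log2 0.93, adjusted p = 0.0228). Without the CD45.2 library of mouse 2, 3 or 5, both CD45.2 calls were lost (adjusted p 0.0808 to 0.201 at the start site and 0.0846 to 0.128 upstream). The start-site call was also lost without the CD45.2 library of mouse 6 (0.203) and with counts divided by peak width (log2 0.65, adjusted p = 0.273), where the peaks are 129 bp wide untreated and 209 bp after LPS. With total-tag scaling both CD45.2 calls were lost (adjusted p 0.220 at the start site and 0.0771 upstream).

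**Figure D4:**
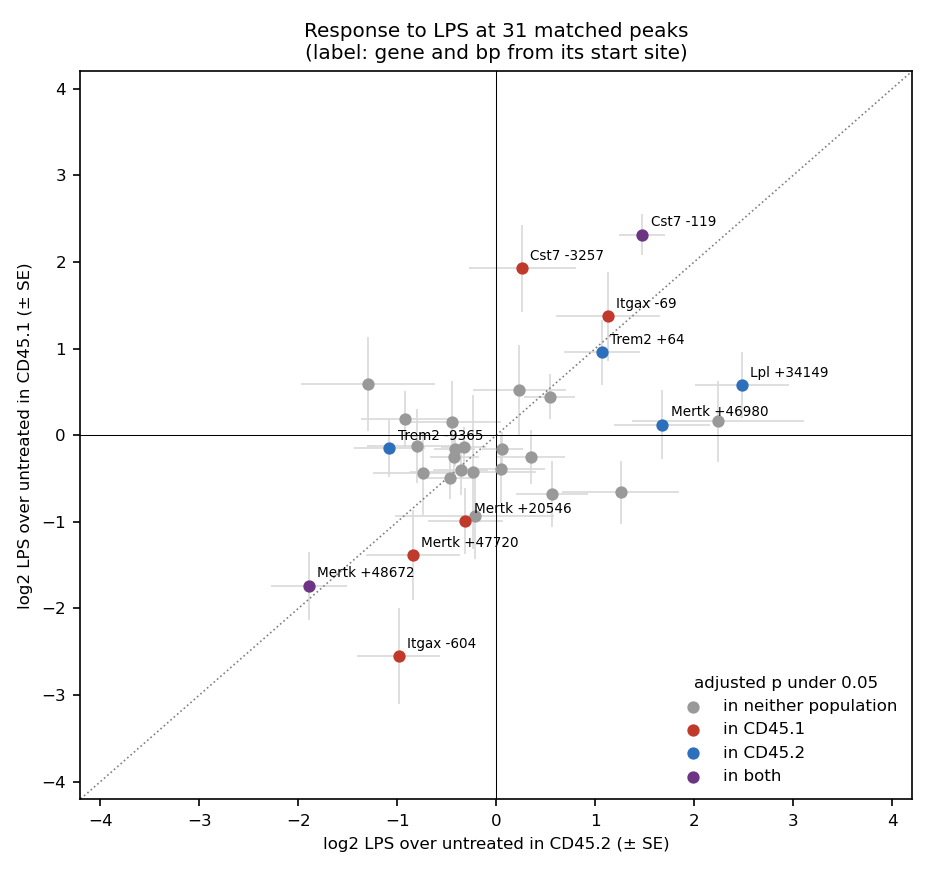
Log2 response to LPS (± SE) in CD45.2 cells (horizontal axis) and CD45.1 cells (vertical axis) at the 31 matched peaks, coloured by the population in which the adjusted p was under 0.05. The Cst7 promoter lies up in both and the Mertk peak 48672 bp downstream lies down in both, while the Lpl peak 34149 bp downstream passed in CD45.2 cells and the Itgax peak 604 bp upstream in CD45.1 cells.

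Whether the response differed between populations was tested by the interaction of population and treatment. It passed at 0 of the 31 peaks, of which 28 had an adjusted p, where 0.0178% of all matched peaks had a larger response in CD45.1 cells and 0.224% a smaller one. The smallest adjusted p was 0.261, for the Lpl peak 34149 bp downstream (log2 -1.91 ± 0.61). At an unadjusted p under 0.05 there were 4 positive and 6 negative, and edgeR also called 0. A response that passed in 1 population and not in the other was therefore not shown to differ at any of these peaks.

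The same test on gene sums, added after the values had been seen, passed for Lpl and Spp1 among the 10 genes, with opposite signs. Of 15383 genes, 0.234% had a larger and 0.215% a smaller response in CD45.1 cells. Spp1 sums were higher after LPS in CD45.1 cells (log2 1.55 ± 0.20, adjusted p = 3.8e-13) and did not pass in CD45.2 cells (log2 0.24, adjusted p = 0.483), a difference of 1.31 ± 0.31 (adjusted p = 0.0106). Lpl sums were higher after LPS in CD45.2 cells (log2 1.31 ± 0.20, adjusted p = 1.3e-09) and did not pass in CD45.1 cells (log2 0.19, adjusted p = 0.423), a difference of -1.12 ± 0.27 (adjusted p = 0.0139). Cst7 sums were higher after LPS in both (log2 1.88 and 1.07) and Mertk sums lower in both (log2 -0.65 and -0.62). Of all gene sums, 21.2% were higher and 18% lower in CD45.1 cells, and 15.8% and 12.0% in CD45.2 cells. The Mertk sum covers 10 peaks in untreated mice and 7 after LPS, so its change also rests on unlike peak sets.

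Both interactions rest on peak sets that differ between the tables, since the Spp1 sum after LPS includes the peaks 54363 and 38604 bp upstream. With matched peaks of the gene alone, neither passed (Spp1 log2 1.11, adjusted p = 0.470, and Lpl -0.64, adjusted p = 0.794), and the Spp1 response in CD45.2 cells turned negative (log2 -0.99, adjusted p = 0.0107). The replicate block also ended both (adjusted p 0.211 and 0.448), and Spp1 passed in 7 and Lpl in 5 of 16 settings, leaving out each library included. The rise of the Spp1 sum in CD45.1 cells rests on the same unlike peak sets. At the matched Spp1 peaks, log2 responses in CD45.1 cells were 0.59, 0.19 and -0.13 (DESeq2 adjusted p 0.465, 0.721 and 0.867).

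Genes related to the 10 by function were taken from 4 lists and tested by gene sums. Of 23 other disease-associated microglia genes, 4 were higher and 2 lower in untreated CD45.1 cells, where 7.35% and 7.46% of all genes were. After LPS 4.08% and 2.98% of all genes were, and these shares are also the background of the lists that follow. Apoe, which encodes the lipid carrier apolipoprotein E, had 192 ± 13 normalized tags against 60.1 ± 4.89 (SD, n = 3, log2 1.66 ± 0.19), and Igf1, a growth factor gene, had 123 against 29.3 (log2 2.08). Ch25h, a cholesterol hydroxylase gene, was higher by a log2 of 0.43, and the fourth was Ank. Csf1, a macrophage growth factor gene, and the tetraspanin gene Cd9 were lower (log2 -0.89 and -0.58). After LPS, Igf1 and Apoe were higher (log2 2.00 and 1.26) and Cd9 lower (log2 -0.62).

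Of 14 genes of TREM2 and DAP12 signalling, 0 were higher and 1 lower in untreated CD45.1 cells, Treml1 with 4.60 against 18.1 tags, while 2 were higher and 2 lower at an unadjusted p under 0.05. After LPS 0 passed in either direction, with 1 higher and 0 lower at an unadjusted p under 0.05. Of 20 genes for the uptake of dying cells, Cd36, a scavenger receptor gene, was higher (606 against 91.9 tags, log2 2.74 ± 0.16), and Timd4 was lower at few tags (0.352 against 6.27). After LPS, Cd36 and Havcr2, which encodes the phosphatidylserine receptor TIM-3, were higher (log2 1.60 and 0.66) and 0 of 19 were lower, with 2 lower at an unadjusted p under 0.05. Of the lysosome and lipid partners, 0 of 10 passed in untreated mice and 0 of 9 after LPS, and 0 and 1 had an unadjusted p under 0.05. The medians of the 4 lists lay between -0.13 and 0.075 (log2) without LPS, against -0.00096 over all genes, and between -0.12 and 0.14 with it, against -0.012.

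Markers of other cell types moved with the population too. Of 5 tested markers of perivascular and other border macrophages, 4 were higher in untreated CD45.1 cells (Cd38, Ms4a7, Pf4 and Mrc1), with a summed signal of 759 to 771 tags per library against 277 to 319, and 3 after LPS (Cd38, Mrc1 and Cd163), with 497 to 554 against 189 to 213. Among 11 homeostatic microglia markers, Sall1 and Sall3 were lower in CD45.1 cells in both tables, and after LPS the sums over the list were 1017 to 1165 against 1321 to 1553. Of 5 monocyte markers, 0 passed in either table, with sums of 231 to 271 against 259 to 267 and of 112 to 121 against 116 to 129, and 0 and 1 had an unadjusted p under 0.05. Of 3 neutrophil markers in untreated mice, Mmp8 was higher and S100a9 lower, and of 6 after LPS Mmp8 was higher. Of 3 lymphocyte markers, Cd3d was higher in untreated mice and 0 passed after LPS. Of 7 markers of neurons, glia and endothelium, Snap25 and Rbfox3 were lower in untreated CD45.1 cells, and Snap25 was lower among 6 after LPS. Markers of these lists that were not tested had no summed signal over the tag minimum, and tested markers not named here were not called. The part of these markers in the differences at Axl, Clec7a, Lpl, Mertk and Spp1 was not tested.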

How the data were processed

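ATAC-seq was measured in CD45.1 and CD45.2 brain macrophages sorted from 3 untreated and 3 LPS-treated chimeras. The authors deposited estimated counts, unnormalized HOMER tags in steps of 0.5, for merged peaks of each treatment annotated on mm9. Their processing notes also name bcl2fastq 2.17.1.14, Bowtie2 and Picard 1.108. Per the file headers, the lists of each library came from HOMER findPeaks, with a score per peak, and only served here to say where a peak had been called.

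Counts were rounded, peaks and gene sums over 10 tags in at least 1 library were kept, and CD45.1 was compared with CD45.2 within a table by DESeq2 1.42.0 (R 4.3.3, Wald test, Benjamini-Hochberg adjustment over all peaks or genes tested). Size factors, from the median ratio of counts between libraries, were 0.61 to 1.29 (untreated) and 0.571 to 1.68 (LPS). Alternatives were edgeR 4.0.16 quasi-likelihood, a replicate block for the mouse, total-tag scaling, a mean count of at least 20, other matching and widths, and leaving out each library. Fits were tested on simulated data. The design text states that both populations came from the same animal, so mice pair the libraries. Same-mouse deviations correlated at 0.082, 0.076 and 0.090 (untreated) and at -0.064, 0.059 and 0.15 (LPS).

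The members and lists were chosen with earlier results of these data known. Values per library are given for the peak nearest each start and for up to 3 passing peaks of a gene with the smallest adjusted p. Other peaks named by value were chosen after their values were seen. Related genes are named by the smallest adjusted p, up to 3 per list and direction, with some exceptions added. Windows were read from mm9, and none of 21 chromosomes had a peak past its end. Start distances are those of the deposited annotation, and gene bodies come from GENCODE M1. Intervals are SE of the fit, and the depth gives a median of 8 to 35 tags per peak and library. The value of 1 homeostatic microglia marker is not reported here.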

Additional observations from a re-analysis of the deposited data

Results flagged for a closer look

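The response of gene sums to LPS differed between the populations at Spp1 and Lpl by the interaction of population and treatment (DESeq2, chosen after the values were seen). For Spp1 the response in CD45.1 cells was larger than that in CD45.2 cells by 1.31 ± 0.31 on the log2 scale (adjusted p = 0.0106), and for Lpl the difference was -1.12 ± 0.27 (adjusted p = 0.0139). Both calls were lost with the replicate block (adjusted p 0.211 and 0.448), with matched peaks alone (0.470 and 0.794) and with total-tag scaling (0.522 and 1.000). At the 31 matched peaks of the 10 genes no such difference passed.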

How the results depend on the processing

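Depth limits the LPS comparison, with a median of 8 tags per peak in the shallowest library. Of the 11 untreated peaks higher in CD45.1 cells, 6 passed with the mouse as a replicate block, 6 with total-tag scaling and 6 with a mean count of at least 20, which tests fewer peaks, and edgeR called 2 lower. The 3 LPS peaks became 5 with edgeR, 1 with the replicate block and 1 with the mean count. Of the 3 untreated genes, 0 passed with total-tag scaling and 1 by the strongest peak alone, and after LPS edgeR called 2 genes. For LPS responses, edgeR called 4 peaks higher and 4 lower in CD45.1 cells, and 5 and 3 in CD45.2 cells. Among LPS responses, dividing counts by width left 1 of 3 higher in CD45.1 cells, because the others then had no adjusted p. It also ended the calls lower at the Mertk peaks 47720 and 48672 bp downstream in CD45.1 cells, and at Trem2 64 bp and Mertk 48672 bp downstream in CD45.2 cells. It newly called lower the Mertk peak 713 bp upstream in both populations, Clec7a 1213 bp and Axl 11819 bp downstream in CD45.1 and Tyrobp 16 bp upstream in CD45.2 cells. Among these responses, total-tag scaling left 2 of 4 lower in CD45.1, 2 of 4 higher in CD45.2 and 1 of 2 lower in CD45.2. The gene-sum interactions numbered 0 in each direction with the replicate block, with total-tag scaling and with matched peaks alone. Within each table, the replicate block changed no other call. The LPS responses compare different mice, and for them it was run only on the interaction. Except where named, the cause was not tested.

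With 1 library left out, untreated peaks higher numbered 5 to 11 and lower 0 to 1, and LPS peaks higher 1 to 3. Responses lower in CD45.1 numbered 2 to 4, higher in CD45.2 2 to 5 and lower in CD45.2 1 to 2, and gene-sum interactions 0 to 1 in each direction. Untreated log2 differences near 0 changed sign: Trem2 from -0.19 to 0.044, Tyrobp from -0.036 to 0.11 and Gpnmb from -0.048 to 0.31, and after LPS Mertk from -0.070 to 0.31. By the strongest peak alone, Mertk was -0.15 untreated and Trem2 -0.11 after LPS, opposite to their sums. Among other single values, 305 kept direction and side of the threshold and 74 lost a call with 1 library left out, and 184 and 34 did under other settings.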
